A study of Mus musculus with 77 samples.

Results

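Pericytes are mural cells that lie within the basement membrane of capillaries and wrap the endothelium. They are recruited to new vessels by platelet-derived growth factor B from endothelial cells, which signals through the receptor encoded by *Pdgfrb*, and the retina is known for its dense pericyte cover. In oxygen-induced retinopathy (OIR), high oxygen leads to a loss of retinal capillaries in the pup, and the return to room air leads to hypoxia and to growth of new vessels. The genes described here are 9 genes known from mural cells, *Abcc9*, *Kcnj8*, *Cspg4*, *Pdgfrb*, *Rgs5*, *Higd1b*, *Ndufa4l2*, *Notch3* and *Cd248*. They were chosen by their measured ratios on these same arrays, so that all differences between OIR and control mice of the 9 genes are given as a description, without p-values. Each gene was measured by 1 probe, which makes 9 of 55681 probes and 9 of 21154 genes with a symbol.

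The arrays came from 77 C57BL/6 mice, with 1 array per mouse and the RNA of both retinas pooled. Mice of the OIR group were kept in chambers with 75% oxygen from P7 until P12 and then in room air. Control mice were kept in chambers with 21% oxygen over the same days and then in room air. Retinas were taken on P12 (13 OIR and 12 control mice), P17 (13 and 12) and P28 (13 and 14). Whole litters were given 1 of the oxygen levels, with several litters per group, and the litter of each mouse is not given in the sources used here, so that litter was not part of the model.

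On each array the retina RNA was hybridized together with a universal mouse reference RNA in another color. By the sample labels, Cy5 carries the retina and Cy3 the reference, whereas the values pointed the other way. The rod photoreceptor genes *Sag*, *Gnat1*, *Pde6b*, *Nrl* and *Cnga1* were brighter in Cy3 on all 77 arrays, and the smallest log2 difference, that of *Pde6b*, was 1.04. Cy3 was therefore taken as the retina, and each value below is a log2 ratio of retina over reference, opposite in sign to the labels. The ratio carries an offset, which draws the values of dim spots towards 0. For this reason many differences are also given from the retina channel alone, without the reference, or from the ratio deposited by the authors. The deposited ratio has no offset. A ratio below 0 means that the reference RNA was the brighter of both, and ratios of different genes cannot be ranked as levels.

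The signal of the arrays differed between scan days. On 1 of the 4 scan days, the retina channel had a median of 28214 probes well above background in the P12 control and 25923 in the P12 OIR group, 25696 and 29346.5 on P17, and 32934 and 33071 on P28. On the other scan days the same medians were 19241 and 19997, 19806 and 19433, and 20493 and 17952.5. The brighter scan day held 3 of 12 control and 2 of 13 OIR arrays of P12, 5 of 12 and 2 of 13 arrays of P17, and 9 of 14 and 11 of 13 arrays of P28. Each difference was therefore also computed without these arrays on P12 and P17 and with these arrays alone on P28, a choice made after seeing the data, and with the slide as a block.

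In the retina channel, *Higd1b*, *Ndufa4l2* and *Cd248* had probes well above background on every array. Those of *Abcc9*, *Cspg4*, *Pdgfrb*, *Rgs5* and *Notch3* were so on most arrays, with the lowest counts in P12 OIR mice, 7 of 13 for *Abcc9* and for *Rgs5* and 8 of 13 for *Cspg4*. *Kcnj8* was near background. It was well above it in 0 of 13 OIR and 2 of 12 control mice on P12, in 2 of 13 and 3 of 12 on P17, and in 11 of 13 and 9 of 14 on P28. The retina as a whole was measured, so that fewer pericytes and less RNA per pericyte cannot be told apart.

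The pericyte genes were mostly lower in OIR than in control mice on P12 and higher on P17, and on P28 their differences ran from −0.12 to 0.26, except for *Ndufa4l2* at 0.79. The direction depended on the scaling for *Notch3* on P12 and P28 and for *Rgs5* on P17 and P28. A probe was counted as differentially expressed at an adjusted p under 0.05 in limma, over all probes. On P12, 2 of the 9 genes were lower by this count (*Abcc9* and *Higd1b*), beside 0.0615% of all genes, and 0 were higher, beside 0% of all genes. Before adjustment, 281 genes were higher on P12 at a p under 0.05. On P17, 5 of the 9 were higher (*Cspg4*, *Higd1b*, *Ndufa4l2*, *Notch3* and *Cd248*), beside 1.64% of all genes, and 0 were lower, beside 0.652%. On P28, 1 of the 9 was higher (*Ndufa4l2*), beside 0.132% of all genes, and 0 were lower, beside 0.00473%. The ranges of OIR and control mice did not overlap for 0 of the 9 genes on P12, for 2 on P17 and for 1 on P28, beside 0.00945%, 0.298% and 0.0142% of all genes. On P12 the retina channel alone gave 4 lower genes, with *Ndufa4l2* and *Cd248* added. There were 3 with the deposited ratio (*Cd248* added) and 3 without background subtraction (*Ndufa4l2* added). These settings called 0.0718%, 0.07% and 0.0305% of all probes, in either direction. In 1 model over 6 groups, *Ndufa4l2* passed on P12 in place of *Abcc9*. Without the brighter scan day, *Abcc9* passed on P17 in place of *Notch3*. *Pdgfrb* was added on P17 with the slide as a block and with the deposited ratio. On P28 none of the 9 passed with the deposited ratio, where *Ndufa4l2* was at 0.76. With the slide as a block, *Higd1b* was added on P28. These counts use the comparison by which the genes were chosen, and nothing is read from them.

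**Figure D1:**
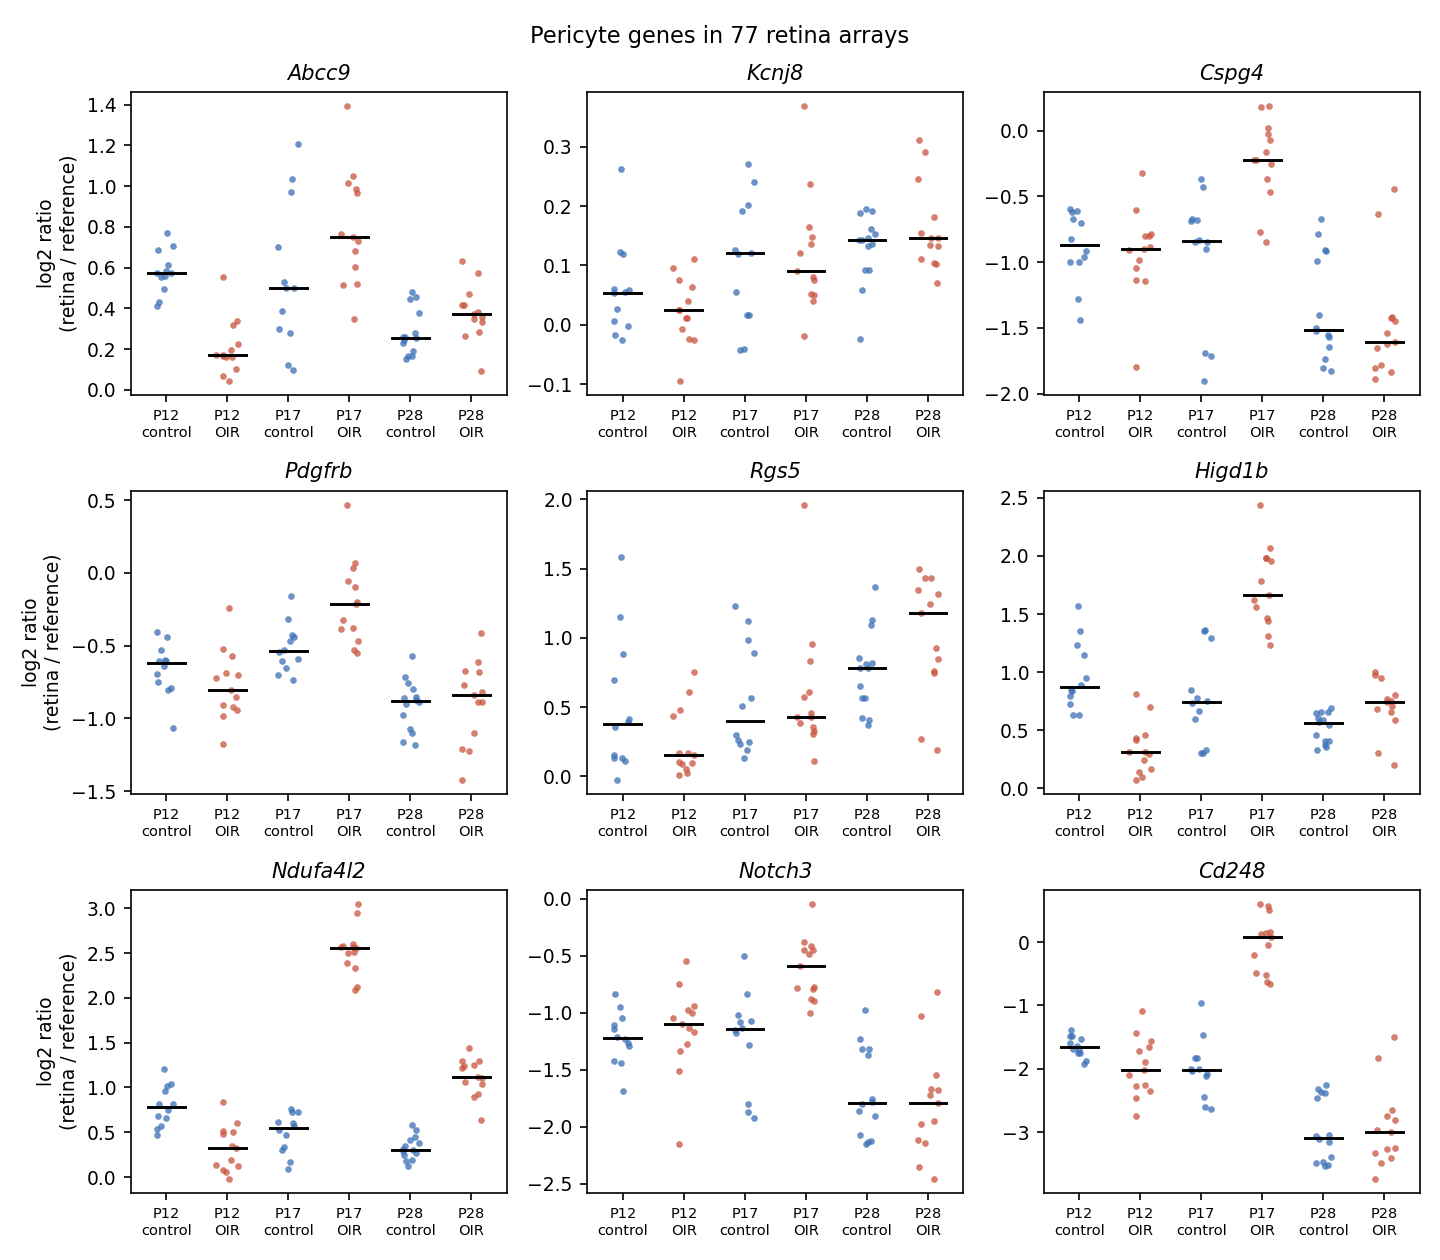
Log2 ratio of retina over reference of the 9 pericyte genes (vertical axes, each with its own scale) in the 6 groups of mice (horizontal axes). Each point is 1 mouse and the black lines are medians. On P17, all 13 OIR mice lay above all 12 control mice for *Ndufa4l2* and *Cd248*. For each of the other genes, the ranges of OIR and control mice overlapped on all days.

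*Cd248* encodes endosialin, a transmembrane glycoprotein of mural cells and fibroblasts in growing tissue. In control mice, its log2 ratio ran from −1.92 to −1.39 with a median of −1.66 on P12, from −2.64 to −0.96 with a median of −2.02 on P17, and from −3.53 to −2.26 with a median of −3.09 on P28. In OIR mice, it ran from −2.74 to −1.08 with a median of −2.02 on P12, from −0.67 to 0.61 with a median of 0.081 on P17, and from −3.74 to −1.503 with a median of −2.99 on P28. The P17 OIR group thus stood above each of the other 5 groups. Both P28 groups were at the low end, with medians closer to each other than the spread of either. The brighter scan day held 9 of 14 control and 11 of 13 OIR arrays of P28, and it was not taken out of this order. The difference between OIR and control mice was −0.32 on P12 (standard error 0.14), 1.97 on P17 (standard error 0.18, a fold change of 3.93) and 0.050 on P28 (standard error 0.21). On P12, 10 of 13 OIR mice had a ratio below the control median, and the retina channel alone gave −0.52 and the deposited ratio −1.03. On P17 the OIR mouse with the lowest ratio was 0.29 above the highest control mouse, and each of the 6 slides with both groups gave a positive difference, from 1.56 to 2.66. With the slide as a block, the differences were −0.47, 1.99 and 0.17, and the deposited ratio gave 2.88 on P17.

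*Cspg4* encodes NG2, a chondroitin sulfate proteoglycan on the surface of pericytes and of oligodendrocyte precursors. On P12 its log2 ratio ran from −1.44 to −0.59 with a median of −0.87 in control mice, and from −1.80 to −0.33 with a median of −0.90 in OIR mice. On P17 the range was −1.90 to −0.37 in control mice, with a median of −0.84, and −0.85 to 0.19 in OIR mice, with a median of −0.23. The P28 medians were −1.52 and −1.61. The P17 OIR group had the highest median of all 6 groups, an order across days from which the scan day was not taken out. Its range overlapped that of the P17 control group, and 9 of its 13 mice were above the highest control mouse. The difference was 0.73 on P17 (standard error 0.16) and lay between 0.49 and 0.89 on the 6 slides with both groups. On P12 and P28 it was −0.047 (standard error 0.12) and −0.12 (standard error 0.16). The P12 value depended on how the ratio was made. It was −0.18 with the slide as a block (standard error 0.065), −0.40 in the retina channel alone (standard error 0.093) and −1.20 in the deposited ratio, which gave 2.004 on P17.

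*Notch3* encodes the Notch receptor that is found mainly on mural cells. Its log2 ratio ran from −1.93 to −0.51 in P17 control mice, with a median of −1.14, and from −1.01 to −0.044 in P17 OIR mice, with a median of −0.59. The medians of control and OIR mice were −1.22 and −1.10 on P12, and −1.79 in each group on P28. All 13 OIR mice of P17 were above the control median, and 6 were above the highest control mouse. The difference on P17 was 0.63 (standard error 0.14), and 0.62 in the retina channel alone, and it was positive on all 6 slides, from 0.35 to 1.21. Without the brighter scan day it was 0.41 (standard error 0.12), and *Notch3* was then no longer counted as differentially expressed. The differences on P12 (0.069, standard error 0.13) and P28 (−0.089, standard error 0.16) were smaller than their standard errors. Both changed sign in the retina channel alone, to −0.10 and 0.052, with the slide as a block and in the deposited ratio.

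*Pdgfrb* is the receptor by which pericytes answer to the endothelial growth factor. The median log2 ratio of the P12 groups was −0.62 in control and −0.81 in OIR mice, followed by −0.53 and −0.22 on P17 and −0.88 and −0.84 on P28. On P17, 12 of 13 OIR mice lay above the control median and 5 lay above the highest control mouse. The difference was 0.31 (standard error 0.093), 0.37 with the slide as a block (standard error 0.087) and 0.71 with the deposited ratio. On P12 the difference was −0.11 (standard error 0.083), −0.32 in the retina channel alone (standard error 0.12) and −0.93 in the deposited ratio. On P28 it was 0.021 (standard error 0.087).

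*Abcc9* and *Kcnj8* encode the regulatory and the pore-forming subunit of the ATP-sensitive potassium channel of mural cells, which sets their membrane potential. By the RefSeq annotation they lie next to each other on the same chromosome, with 0 genes between them. The log2 ratio of *Abcc9* ran from 0.41 to 0.77 in P12 control mice, with a median of 0.57, and from 0.044 to 0.56 in P12 OIR mice, with a median of 0.17. The ratios of all 13 OIR mice were below the control median, and 12 were below the lowest control mouse. The difference was −0.37 (standard error 0.048), negative on all 7 slides with both groups, from −0.47 to −0.11. It was −0.59 in the retina channel alone (standard error 0.085) and −1.98 in the deposited ratio. Without the brighter scan day the difference on P12 was −0.38, and the ranges of both groups no longer overlapped. On P17 the ratio of *Abcc9* ran from 0.097 to 1.21 in control mice and from 0.35 to 1.39 in OIR mice, with medians of 0.50 and 0.75. The difference was 0.24 (standard error 0.12), 0.32 with the slide as a block (standard error 0.099), 0.84 in the deposited ratio, 0.55 in the retina channel alone (standard error 0.12) and 0.41 without the brighter scan day (standard error 0.090). On P28 the medians were 0.26 and 0.37, with a difference of 0.097 (standard error 0.047).

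For *Kcnj8*, the log2 ratio stayed between −0.095 and 0.37 over all 77 mice. As no OIR mouse of P12 was well above background, no fold change is given for that day. The differences on P17 and P28 were 0.012 (standard error 0.041) and 0.035 (standard error 0.026). They were 0.30 and 0.63 with the deposited ratio, and 0.14 and 0.086 in the retina channel alone. Near background, small values of the offset ratio do not show that the gene was alike in both groups. The lower ratio of its partner *Abcc9* on P12 could therefore not be compared with *Kcnj8* on these arrays. Of the subunits that form the related channel of other cells, *Abcc8* and *Kcnj11*, none was differentially expressed, with differences between −0.14 and 0.029 over the days.

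*Rgs5*, a regulator of G protein signaling that is abundant in pericytes, varied more between mice than between groups. Its log2 ratio ran from −0.027 to 1.58 in P12 control mice, from 0.0099 to 0.75 in P12 OIR mice, from 0.13 to 1.23 and from 0.11 to 1.96 on P17, and from 0.37 to 1.37 and from 0.19 to 1.497 on P28. The median was highest in P28 OIR mice, at 1.18, and lowest in P12 OIR mice, at 0.15, and all 6 ranges overlapped. The brighter scan day held 11 of 13 arrays of P28 OIR and 2 of 13 of P12 OIR mice, and it was not taken out of this order. The differences were −0.26 (standard error 0.15), 0.039 (standard error 0.17) and 0.26 (standard error 0.14) on the 3 days. With the deposited ratio, that of P12 was −0.73, and those of P17 and P28 turned to −0.031 and −0.19.

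*Higd1b* encodes a small mitochondrial membrane protein of the hypoxia-inducible domain family and is a selective marker of pericytes. Its log2 ratio ran from 0.63 to 1.57 in P12 control mice, with a median of 0.87, and from 0.073 to 0.81 in P12 OIR mice, with a median of 0.31. On P17 the ranges were 0.30 to 1.36 and 1.24 to 2.44, with medians of 0.74 and 1.66. On P28 they were 0.33 to 0.69 and 0.21 to 1.003, with medians of 0.56 and 0.75. All 13 OIR mice were thus below the control median on P12 and above it on P17, where 11 were above the highest control mouse. The difference was −0.62 on P12 (standard error 0.10), 0.96 on P17 (standard error 0.14) and 0.18 on P28 (standard error 0.070). With the deposited ratio it was −1.225, 1.42 and 0.43. All 7 slides of P12 gave a negative difference, from −0.98 to −0.25, and all 6 slides of P17 a positive one, from 0.77 to 1.43. When the brighter scan day was left out, the ranges of both groups did not overlap on either of these days, with differences of −0.59 and 1.12. On P28 the slide as a block gave 0.23 (standard error 0.047) and the retina channel alone 0.028 (standard error 0.067).

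*Ndufa4l2* encodes a mitochondrial protein that resembles a subunit of the respiratory chain and is known as a target of hypoxia-inducible factor. In the offset ratio it had the largest difference of the 9 genes on P17 and on P28, whereas in the deposited ratio those of *Cd248* and *Cspg4* were larger on P17. Its log2 ratio ran from 0.47 to 1.20 in P12 control mice, with a median of 0.78, and from −0.021 to 0.84 in P12 OIR mice, with a median of 0.32. On P17 it ran from 0.092 to 0.75 in control and from 2.09 to 3.05 in OIR mice, with medians of 0.55 and 2.55. On P28 it ran from 0.12 to 0.58 and from 0.63 to 1.44, with medians of 0.31 and 1.12. The order of the medians was thus P17 OIR, P28 OIR, P12 control, P17 control, P12 OIR and P28 control. The ranges of the last 5 overlapped, except those of P28 OIR and P28 control. The scan day was not taken out of this order either. The difference was −0.47 on P12 (standard error 0.094), and 12 of 13 OIR ratios were under the control median. It was 2.03 on P17 (standard error 0.096, a fold change of 4.09), where a gap of 1.34 separated the groups, and 0.79 on P28 (standard error 0.066, a fold change of 1.73), with a gap of 0.054. The slides gave −1.01 to −0.15 on the 7 slides of P12, 1.75 to 2.25 on the 6 of P17, and 0.74 to 0.98 on the 3 of P28.

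The reference RNA was the same on all arrays, yet the *Ndufa4l2* spot differed between the groups in that channel too. Its log2 signal after quantile normalization ran from 5.81 to 5.97 in P17 control mice and from 6.29 to 7.48 in P17 OIR mice, a difference of 0.73 (standard error 0.088). The reference channel was well above background in 6 of 12 of these control and in all 13 of these OIR mice. On P28 its difference was 0.21 (standard error 0.039) and on P12 −0.060 (standard error 0.034). This difference was known when the genes were chosen and is given without a test. The other 8 genes had differences of the reference channel between −0.058 and 0.076 over the days. The higher denominator lowers the ratio, and the retina channel alone gave 3.04 on P17 (standard error 0.089), 1.06 on P28 and −0.68 on P12. With the deposited ratio the differences were 1.45, 0.76 and −0.80. What raised the reference channel of this spot was not tested.

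**Figure D2:**
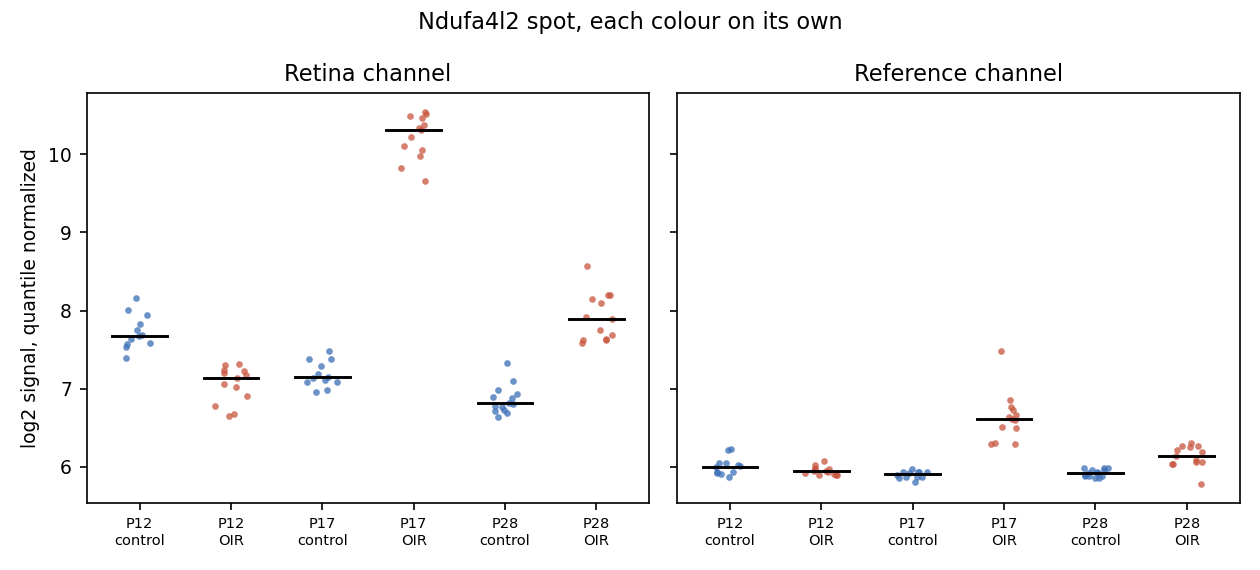
Log2 signal of the *Ndufa4l2* spot after quantile normalization (vertical axis) in the retina channel (left) and the reference channel (right) by group. Each point is 1 mouse and the black lines are medians. In the reference channel, the 13 OIR mice of P17 lay at 6.29 or higher and the 12 control mice of P17 at 5.97 or lower.

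**Figure D3:**
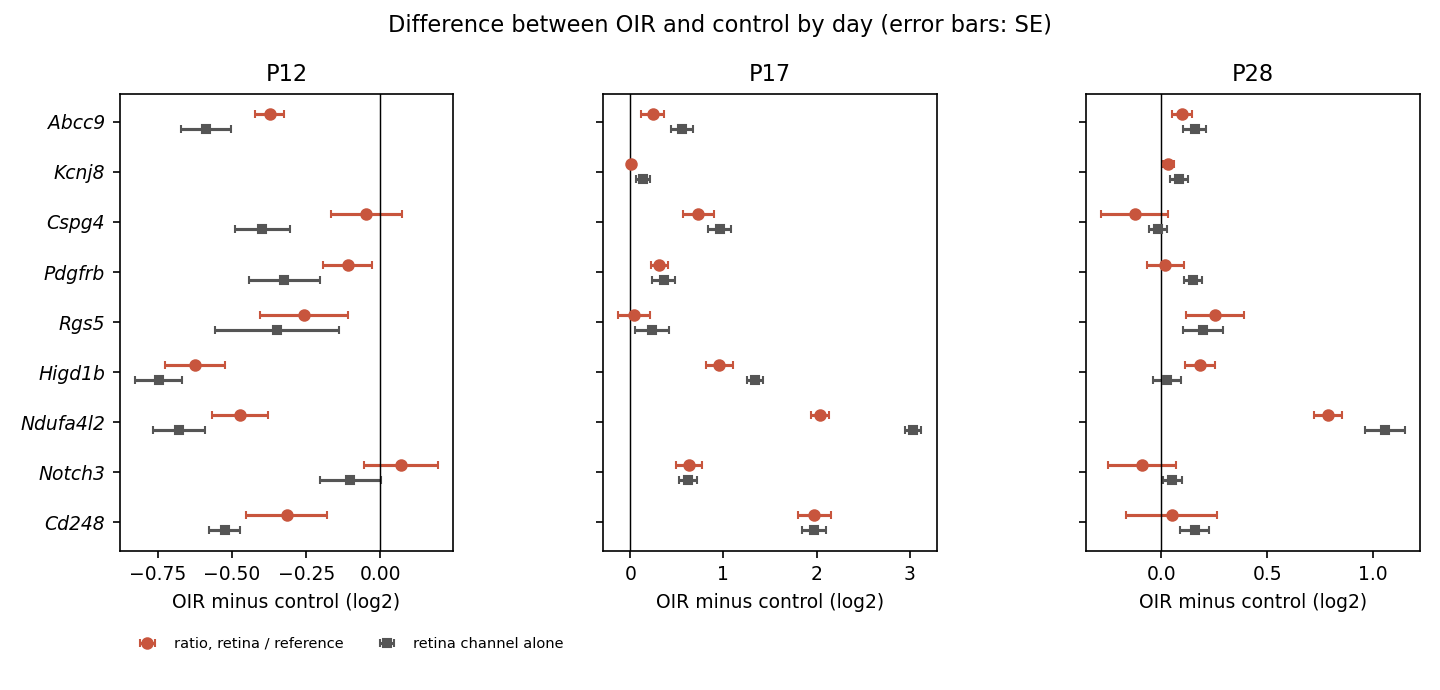
Difference between OIR and control mice (horizontal axes, log2, with standard errors as bars) of the 9 genes on P12, P17 and P28, from the ratio of retina over reference (circles) and from the retina channel alone (squares). The value of *Kcnj8* on P12 is left out, as no OIR mouse was well above background there. *Ndufa4l2* on P17 was at 2.03 in the ratio and at 3.04 in the retina channel alone.

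The change of the OIR effect between days is described by its size in the offset ratio, and the deposited ratio orders the genes in another way. From P12 to P17, the difference between OIR and control mice moved by 2.51 for *Ndufa4l2* (standard error 0.12), 2.29 for *Cd248* (standard error 0.27), 1.58 for *Higd1b* (standard error 0.16), 0.78 for *Cspg4* (standard error 0.22) and 0.62 for *Abcc9* (standard error 0.12). *Notch3*, *Pdgfrb* and *Rgs5* followed with 0.56, 0.42 and 0.29. From P17 to P28, it moved by −1.92 for *Cd248* (standard error 0.26), −1.25 for *Ndufa4l2* (standard error 0.12), −0.86 for *Cspg4* (standard error 0.21), −0.77 for *Higd1b* (standard error 0.15) and −0.72 for *Notch3* (standard error 0.21). Those of *Rgs5* and *Kcnj8* moved by 0.22 (standard error 0.22) and 0.022 (standard error 0.045), in the other direction. With the deposited ratio, however, the difference of *Rgs5* was −0.031 on P17 and −0.19 on P28. Both steps share the P17 mice. Of all genes, the OIR effect was significantly higher for 0.95% and lower for 0.0993% in the first step, and higher for 0.0567% and lower for 0.52% in the second.

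Another 25 genes known from pericytes were examined beside these. None of the 25 passed the limma test on P12 or P28, although 5 and 4 of them had a p under 0.05 before adjustment. On P17, 2 rose and 1 fell. *S1pr3*, a receptor for sphingosine 1-phosphate, rose from 0.41 ± 0.19 (SD, n = 12) to 0.82 ± 0.18 (SD, n = 13), by 0.41 (standard error 0.072, adjusted p = 0.00194), and every OIR ratio exceeded the control median. *Lamc3*, a laminin chain, rose by 0.11 (standard error 0.026, adjusted p = 0.047), and no longer passed with the slide as a block (adjusted p = 0.0919) or with the deposited ratio (adjusted p = 0.191). *Ebf1*, a transcription factor that is also made by retinal neurons, fell by 0.28 (standard error 0.038, adjusted p = 6.36e-05), and every OIR ratio was under the control median. From P12 to P28 the median log2 fold change of the 25 genes was −0.063, 0.034 and −0.00065, beside −0.0016, −0.0027 and 0.0034 over all genes. The medians of the 9 genes above, which were chosen by their ratios, were −0.26, 0.63 and 0.050. Several of the 25 genes were near background on P12 and P17. Among them, *Art3*, *Atp13a5*, *Tbx18*, *Enpep* and *Ecm2* were well above it in 0 of 13 OIR mice of P12. The offset draws such values towards 0, so that medians near 0 do not show that these genes were alike in both groups. On P12 the largest difference among the 25 was that of *Vtn* (−0.35, adjusted p = 1), which turned to 0.29 in the deposited ratio, and on P28 that of *Zic1* (0.64, adjusted p = 0.558).

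Some of the 25 genes that were not differentially expressed had sizeable values on P17. *Cox4i2*, a subunit of cytochrome c oxidase found in pericytes, differed by 0.55 (standard error 0.15, adjusted p = 0.0963), by 0.53 with the slide as a block (adjusted p = 0.017), by 0.65 in the deposited ratio (adjusted p = 0.225) and by 0.63 in the retina channel alone (adjusted p = 0.258). *Gucy1b1*, a subunit of the nitric oxide receptor in mural cells and in retinal neurons, differed by −0.66 (standard error 0.18, adjusted p = 0.0871), by −0.52 with the slide as a block (adjusted p = 0.0123), by −0.53 in the retina channel alone (adjusted p = 5.62e-07) and by −0.46 in the deposited ratio (adjusted p = 0.55). Its partner *Gucy1a1* differed by −0.52 (adjusted p = 0.414), by −0.35 in the retina channel alone (adjusted p = 0.00119) and by 0.052 in the deposited ratio. *Gja4*, a connexin of vessel walls, differed by 0.27 (standard error 0.069, adjusted p = 0.0564), by 0.30 with the slide as a block (adjusted p = 0.0347), by 0.47 in the retina channel alone (adjusted p = 0.00271) and by 1.03 in the deposited ratio (adjusted p = 0.119). These 4 genes were picked after their values were seen. In the retina channel alone, 4 of the 25 genes were higher and 3 were lower on P17.

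Of 15 genes for the recruitment of pericytes, 1 fell on P12 and 3 rose on P17, while on P28 none was differentially expressed, with 2 at a p under 0.05 before adjustment. *Pdgfb*, the ligand of the *Pdgfrb* receptor, rose on P17 from −0.71 ± 0.22 (SD, n = 12) to 0.087 ± 0.26 (SD, n = 13), by 0.79 (standard error 0.093, adjusted p = 8.47e-06). On P12 it differed by −0.21 (adjusted p = 1), and it fell by 0.40 in the retina channel alone (adjusted p = 4.19e-05) and by 0.66 in the deposited ratio (adjusted p = 0.000117). *Eng*, a co-receptor for transforming growth factor beta, rose by 0.59 (standard error 0.081, adjusted p = 9.41e-05). *Acvrl1*, the receptor with which it acts, fell by 0.18 on P12 (standard error 0.031, adjusted p = 0.0175) and rose by 0.33 on P17 (standard error 0.064, adjusted p = 0.00592). For each of these 3 genes, all 13 OIR mice of P17 lay above the control median, and all calls were also made with the slide as a block. In the retina channel alone, the P12 value of *Acvrl1* was −0.30 with an adjusted p of 1. *Angpt2*, which loosens the contact of pericytes and endothelium, differed by 0.38 on P17 (standard error 0.13, adjusted p = 0.205). Its deposited ratio gave 1.78 (adjusted p = 0.000101). On P28 the largest difference was that of *Tgfb1* (−0.21, adjusted p = 0.791), which was positive in the deposited ratio and in the retina channel alone.

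Among 16 relatives of the 9 genes by family, *Cd93*, a receptor of endothelial cells in the family of *Cd248*, fell by 1.03 on P12 (standard error 0.15, adjusted p = 0.00203) and rose by 1.63 on P17 (standard error 0.14, adjusted p = 4.47e-08). *Higd1a*, the broadly expressed relative of *Higd1b*, rose by 0.54 on P17 (standard error 0.11, adjusted p = 0.00801), and each OIR ratio was higher than the control median. None of the others passed the test on P12 or P17, although *Rgs16* on P17 (−0.39, adjusted p = 0.1) did so with the slide as a block (−0.34, adjusted p = 0.0373) and with the deposited ratio (−0.81, adjusted p = 0.0339). *Ndufa4*, the relative of *Ndufa4l2* in the respiratory chain, differed by −0.70 on P17 (standard error 0.29, adjusted p = 0.377), and its values in control mice had an SD of 0.86. *Pdgfra*, which marks astrocytes and oligodendrocyte precursors in the retina and optic nerve, differed by 0.27 on P17 (adjusted p = 0.472). On P28 none of the 16 was differentially expressed, with 3 at a p under 0.05 before adjustment, and the largest difference was that of *Cd93* (0.46, adjusted p = 0.0716). With the slide as a block *Cd93* passed there (adjusted p = 0.00214). *Pdgfra* passed on P28 with the deposited ratio (0.80, adjusted p = 0.00635) and in the retina channel alone (0.34, adjusted p = 0.00788).

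Markers of other cells of the vessel wall were examined too. Of 14 endothelial genes, 2 fell on P12 and 2 rose on P17, and 10 had a p under 0.05 before adjustment on P12. With the slide as a block 4 fell on P12, with *Robo4* (adjusted p = 0.00774) and *Ptprb* (adjusted p = 0.0155), and 4 rose on P17, with *Cdh5* (adjusted p = 0.0214) and *Robo4* (adjusted p = 0.0116). The retina channel alone gave 5 and 5. *Egfl7* fell by 0.86 on P12 (standard error 0.095, adjusted p = 7.68e-05) and rose by 1.09 on P17 (standard error 0.092, adjusted p = 4.47e-08). *Cd34* fell by 0.81 (standard error 0.11, adjusted p = 0.00111) and rose by 1.33 (standard error 0.11, adjusted p = 4.47e-08). The median of the 14 genes was −0.26 on P12, as was that of the 9 pericyte genes, and 0.085 on P17. Averaged over the 14 genes, the log2 ratio was 0.42 ± 0.15 (SD, n = 12) in control and 0.078 ± 0.080 (SD, n = 13) in OIR mice of P12. Of 10 smooth muscle genes, *Tagln* rose on P17 by 1.03 (standard error 0.22, adjusted p = 0.0164). The control median was exceeded in 12 of 13 OIR mice. *Acta2* differed by 0.85 (adjusted p = 0.106), and it passed with the slide as a block (0.77, adjusted p = 0.0081), the deposited ratio (adjusted p = 0.023) and the retina channel alone (adjusted p = 0.0255). *Actg2* passed in the last 2 (adjusted p = 4.82e-07 and 6.02e-05). On P12 and P28 none of them passed, and 1 had a p under 0.05 before adjustment on each day. The median of the smooth muscle genes was 0.055, 0.15 and −0.055 on the 3 days. The part of endothelial or smooth muscle RNA in the values of the 9 genes was not tested.

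Of 8 fibroblast genes, which share *Cd248* with mural cells, none was differentially expressed on any day, with 0, 3 and 0 at a p under 0.05 before adjustment. The largest difference on P17 was that of *Col1a1* (0.97, standard error 0.35, adjusted p = 0.256). *Col1a1* passed there with the slide as a block (0.89, adjusted p = 0.0499). The retina channel alone and the deposited ratio each gave 3 higher genes on P17, *Col1a1* among them (adjusted p = 4e-05 and 0.00147). Of 10 hypoxia genes, 4 rose on P17, which were *Adm* (1.31, adjusted p = 0.00157), *Vegfa* (0.97, adjusted p = 2e-08), *Bnip3* (0.84, adjusted p = 2.93e-05) and *Pfkfb3* (0.58, adjusted p = 0.00709). For each, all 13 OIR mice were above the control median. *Ndufa4l2* differed by −0.47 on P12, where it was not counted as differentially expressed, and by 0.79 on P28. None of the 10 hypoxia genes was differentially expressed on P12 or P28, with 2 and 3 at a p under 0.05 before adjustment. The largest differences among them on those days were those of *Ldha* (−0.24, adjusted p = 1) and *Slc2a1* (0.39, adjusted p = 0.149). The P28 calls depended on the scaling, as *Slc2a1* passed in the retina channel alone (0.43, adjusted p = 0.0108) and *Adm* with the deposited ratio (1.05, adjusted p = 0.00356).

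The 9 genes were also compared among themselves across mice, as deviations of each mouse from the mean of its group, over 77 arrays and 36 pairs. This takes out the differences between groups by which the genes were chosen. Permutation within groups gave an adjusted p under 0.05 for both Pearson's r and Spearman's rank r in 32 pairs. It treats the mice of a group as exchangeable, although they share slides. With the slide taken out and mice exchanged only within the same group and slide, 5 of the 36 pairs passed for both, none of them negative. This test, chosen after seeing the data, draws on the 58 arrays that share group and slide with another. The genes were split by whether the reference channel was well above background on all arrays. In the ratio, within *Abcc9*, *Kcnj8*, *Rgs5*, *Higd1b* and *Ndufa4l2*, all 10 pairs were positive, with a median r of 0.62. Within *Cspg4*, *Notch3*, *Cd248* and *Pdgfrb*, all 6 pairs were positive, with a median r of 0.73. Between the sets, 19 of 20 pairs were negative, with a median r of −0.44 and a lowest r of −0.64. The r of *Pdgfrb* with 4 of the 5 genes of the other set lay between −0.072 and 0.10.

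By Pearson's r in the ratio, the closest pair was *Cspg4* and *Notch3* (r = 0.88, rank r = 0.83). Their r was 0.86 without the 2 mice farthest from the median and 0.70 after the slide was taken out (adjusted p = 0.0018 and 0.00108 for r and rank r, within group and slide). Before that step it was positive in all 6 groups, from 0.49 to 0.96. In the retina channel alone it was 0.54. By rank r, *Notch3* and *Cd248* were closer (0.84), with an r of 0.44 in the retina channel alone. *Abcc9* and *Higd1b* had an r of 0.74 (rank r = 0.63), which was 0.70 without the 2 mice and 0.55 after the slide was taken out (adjusted p = 0.0473 and 0.0334), but 0.076 in the retina channel alone. *Higd1b* and *Ndufa4l2* had an r of 0.69 (rank r = 0.71), and 0.75 and 0.48 in these checks (adjusted p = 0.051 and 0.0344). *Abcc9* and its channel partner *Kcnj8* had an r of 0.57 (rank r = 0.44), which was 0.47 without the 2 mice and 0.18 after the slide was taken out (adjusted p = 0.584 and 0.492). The other pairs that passed within group and slide were *Cspg4* and *Cd248*, *Rgs5* and *Higd1b*, and *Kcnj8* and *Rgs5*, with an r of 0.43, 0.15 and 0.48 in the retina channel alone.

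Both sets were also set beside the signal of the arrays. Whether that signal, the scanner or the labeling caused the negative pairs was not tested. The reference channel was well above background on all 77 arrays for *Cspg4*, *Notch3*, *Cd248* and *Pdgfrb*, on 0 arrays for *Abcc9* and *Kcnj8*, on 3 for *Rgs5*, on 58 for *Higd1b* and on 59 for *Ndufa4l2*. The deviation of *Cspg4* had an r of −0.83 with that of the number of probes well above background on the same array (rank r = −0.80), and *Notch3* and *Cd248* had an r of −0.71 and −0.67. *Rgs5*, *Higd1b*, *Abcc9*, *Kcnj8* and *Ndufa4l2* had an r of 0.66, 0.62, 0.57, 0.57 and 0.38 with it. The adjusted permutation p of these 8 genes, within groups and without regard to the slide, was 0.000337 or lower, among 9 relations computed, and that of *Pdgfrb* (r = −0.22) was 0.0556. After the slide was taken out, *Cspg4* had an r of −0.51, and the others lay between −0.30 and 0.25. Without the 2 arrays farthest from the median signal the r of *Cspg4* was −0.79.

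When the retina channel alone was used in place of the ratio, the 20 pairs between the sets had a median r of 0.30, and 3 of them were negative. The pairs within the sets had medians of 0.15 and 0.39, and none of these 16 pairs was negative. With the slide taken out of the ratio, 11 of the 20 pairs between the sets were negative, with a median r of −0.029, and the medians within the sets fell to 0.31 and 0.60. These alternatives were chosen after seeing the data. The pairs were not tested in the retina channel alone, where the slide was not taken out and several r were near 0. The largest r there was 0.70, that of *Rgs5* and *Notch3*.

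**Figure D4:**
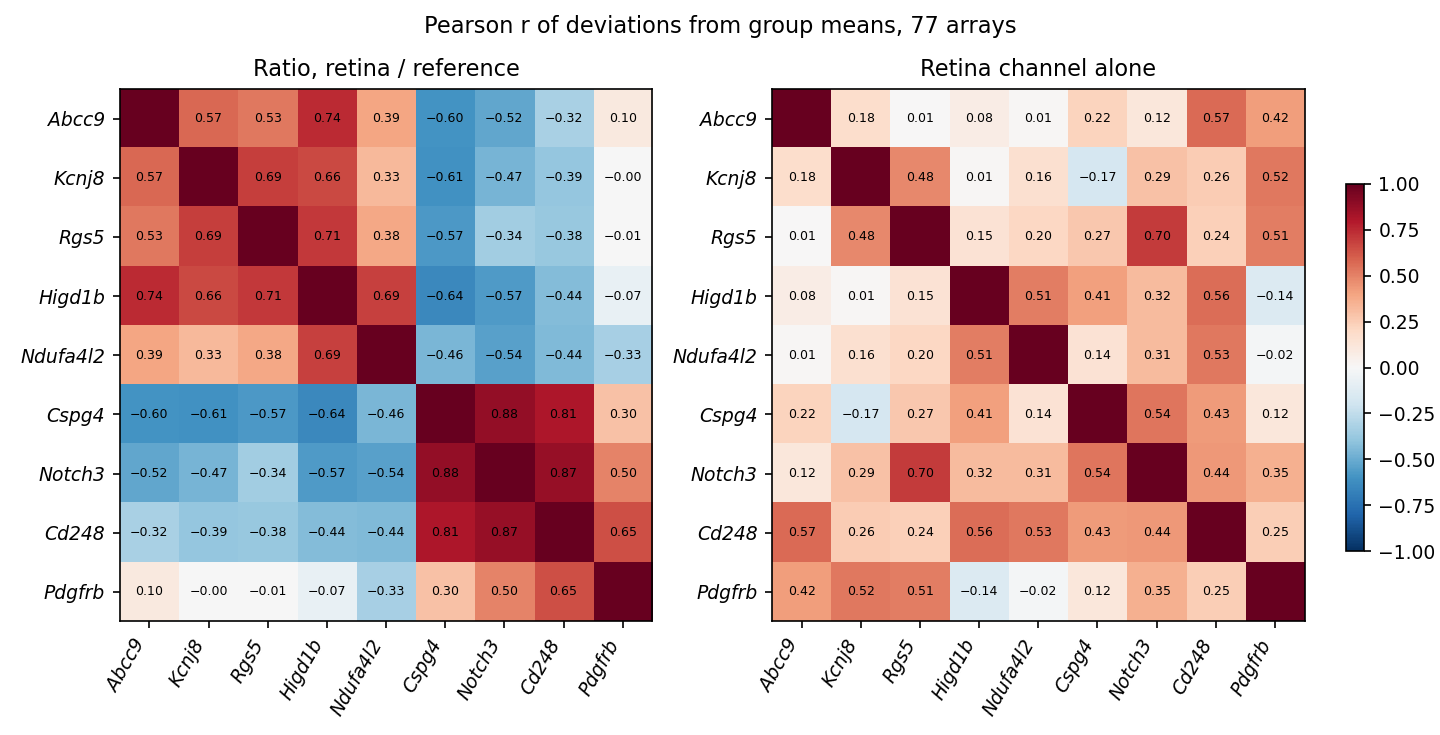
Pearson r of the deviations from the group means for each pair of the 9 genes over 77 arrays (color scale from −1 to 1), from the ratio of retina over reference (left) and from the retina channel alone (right). In the ratio, 19 of the 36 pairs were negative, and in the retina channel alone 3 were.

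Of 21145 other genes, those that followed the mean standardized deviation of the 9 genes most closely over the 77 arrays were *Lrrc32* (r = 0.73), *Notch4* (r = 0.70), *Angpt2* (r = 0.67), *Gja4* (r = 0.67), *Ecscr* (r = 0.67) and *Icam2* (r = 0.66). The median over all these genes was 0.059. With the slide taken out, the 6 values lay between 0.55 and 0.64, and in the retina channel alone between 0.22 and 0.57. *Notch4*, *Ecscr* and *Icam2* are known from endothelial cells and *Gja4* from the wall of arterioles. The arrays share the tissue and the slides, and nothing is said of a shared control of these genes.

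A promoter sequence in the RefSeq table (GRCm38.p6), from 250 bases before to 50 bases after the start, was matched to 5 of the 9 genes, *Abcc9*, *Kcnj8*, *Cspg4*, *Rgs5* and *Notch3*. They were searched on both strands for ACGTG, a core bound by hypoxia-inducible factors, and for TGGGAA, a core bound by the Notch partner RBPJ. Other forms of these cores were not searched. Neither motif contains the other. ACGTG was present in 19.6% and TGGGAA in 25.6% of 32851 promoters of this length. *Notch3* had 2 matches to ACGTG, and the other 4 had 0. *Abcc9* and *Kcnj8* each had 1 match to TGGGAA, and the other 3 had 0. The sequences of *Cspg4* and *Notch3* are shown, since this pair had the highest Pearson r in the ratio. They are given 5′ to 3′ up to the start of the gene model, at chr9:56864854-56865103 on the plus strand and chr17:32166897-32167140 on the minus strand. Capitals mark a match to ACGTG, read on the opposite strand, of which 1 lies in the stretch shown. A match describes the letters in this window and is not a measured binding site.
*Cspg4*: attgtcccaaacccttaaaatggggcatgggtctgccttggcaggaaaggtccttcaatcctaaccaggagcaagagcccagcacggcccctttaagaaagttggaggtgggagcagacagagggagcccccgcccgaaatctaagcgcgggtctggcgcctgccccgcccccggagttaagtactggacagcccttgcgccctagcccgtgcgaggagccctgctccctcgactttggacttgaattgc
*Notch3*: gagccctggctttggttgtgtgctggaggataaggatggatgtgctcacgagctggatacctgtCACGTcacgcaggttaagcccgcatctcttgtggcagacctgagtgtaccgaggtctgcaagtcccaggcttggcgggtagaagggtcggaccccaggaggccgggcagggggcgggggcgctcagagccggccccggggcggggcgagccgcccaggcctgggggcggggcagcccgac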

How the data were processed

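The authors extracted the scanned signals with Agilent Feature Extraction (version 10.7.3.1 per the file headers). The deposited scanner files hold median signals and backgrounds as intensity values, and the software's own ratio, Cy5 over Cy3, as log10 per the file headers. A further deposited table gives Cy3 over Cy5 as log2, made by the authors from the software's processed signals. At least 99.7% of its values on every array were within 0.001 of that ratio.

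From the median signals, log2 ratios were computed here with limma 3.58.1 in R 4.3.3 (normexp, offset 50, loess within each array). Control spots had no weight, and outlier spots (0.592 to 0.951% of 62976 spots per array) were left out. Spots of a probe were averaged, and no filter on dim probes was applied. The retina and the reference channel alone were quantile normalized between arrays. Groups were taken from the labels. OIR and control mice of a day were compared with limma's moderated test and Benjamini-Hochberg adjustment over 55681 probes, and OIR effects of different days in 1 model over 6 groups. The procedure was tested on simulated data. A gene stood for its brightest probe, with symbols matched by transcript to RefSeq for 28026 probes. Mice carried unique numbers, so that no samples were paired. The number of arrays limits the precision.

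The 9 genes and all gene lists were chosen with earlier results of these data known. Named from each list and day were up to 4 differentially expressed genes with the largest absolute log2 fold change, or, where there was none, the gene with the largest, and the 6 genes most like the 9. The differences of 1 gene list are not reported here. Figures were drawn with matplotlib in Python. The alternatives were no background subtraction, the deposited ratio, the scanner's log ratio, the retina channel alone, slide as a block, 1 model over 6 groups, a filter on dim probes and, chosen after seeing the data, 1 scan day apart. Differentially expressed probes under the alternatives are given as a percent of all probes, also where the filter tested fewer.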

Additional observations from a re-analysis of the deposited data

Results flagged for a closer look

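For *Higd1b*, the difference between OIR and control mice moved by 1.58 on the log2 scale from P12 to P17, since all 13 OIR mice were below the control median on P12 and above it on P17. This difference was not tested, as the gene was chosen by these values.

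For genes outside the 9, the change of the OIR effect between days was tested in limma with adjustment over all probes, and those given here passed. Among genes of pericytes and their recruitment, the effect was higher on P17 than on P12 by 1.005 for *Pdgfb*, 0.7976 for *Eng*, 0.8606 for *Cox4i2*, 0.5092 for *Acvrl1*, 0.4916 for *S1pr3* and 0.4102 for *Gja4*, and it differed by −0.3208 for *Ebf1*. It was lower on P28 than on P17, by −0.7283 for *Pdgfb*, −0.5416 for *Eng* and −0.2977 for *Acvrl1*. Among relatives of the 9 genes, the change from P12 to P17 was 2.661 for *Cd93* and 0.6157 for *Higd1a*, and the change from P17 to P28 was −1.167 for *Cd93*.

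Of the endothelial genes, *Egfl7* changed its OIR effect by 1.95 from P12 to P17 and by −1.133 from P17 to P28, and *Cd34* by 2.14 and −1.07. *Robo4* and *Cdh5* changed by 1.039 and 0.5749 from P12 to P17. Of the hypoxia genes, *Vegfa* changed by 1.18 and −0.8014, *Bnip3* by 0.8891 and −0.8185, and *Pfkfb3* and *Ankrd37* by 0.6733 and 0.4052 from P12 to P17.

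The reference channel, which should not differ between mice, was higher by 0.7308 in OIR mice of P17 at the *Ndufa4l2* spot, above the level in control mice. The cause was not tested.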

How the results depend on the processing

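The differentially expressed share of all probes was 0.0233% for P12, 1.13% for P17 and 0.0611% for P28. The shares were 0.07%, 2.64% and 0.203% with the deposited ratio, 0.0754%, 2.93% and 0.216% with the scanner's log ratio and 0.0718%, 2.99% and 0.296% in the retina channel alone. Without background subtraction 1.87% passed on P17 and 0.11% on P28. For P28 the share was also 0.219% with the slide as a block, 0.149% in 1 model over 6 groups and 0.119% on the brighter scan day alone. All other shares were within 1.5 times the main one. Of the 25 other pericyte genes, 3 were differentially expressed on P17, and 6 without background subtraction, 7 in the retina channel alone, and 5 each with the slide as a block, in 1 model over 6 groups and with the filter on dim probes. On P28 the count was 0, and 1 each with the deposited ratio, the scanner's log ratio, the retina channel alone and 1 model over 6 groups. The cause of these differences was not tested.

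For the 9 genes on 3 days, 21 of 27 differences moved by more than the spread between mice with the deposited ratio, as many with the scanner's log ratio, 8 in the retina channel alone, 1 without background subtraction and 0 with the slide as a block, in 1 model and with 1 scan day apart. Dim spots limit the values of *Kcnj8* on all days and of *Abcc9*, *Rgs5* and *Cspg4* in P12 OIR mice.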

Other observations

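Of 6 genes of the pigment epithelium, which can adhere to a dissected retina, *Rpe65* fell on P17 by 0.81 (standard error 0.19, adjusted p = 0.0322 in limma), with all 13 OIR mice below the control median. With the slide as a block it had an adjusted p of 0.0787. All 6 genes had a negative difference on that day. None of them passed the test on P12 or P28, with 0 and 2 at a p under 0.05 before adjustment, and the largest differences were those of *Ttr* (−0.13, adjusted p = 1) and *Tyrp1* (0.72, adjusted p = 0.615). That of *Ttr* was positive with the slide as a block and in the retina channel alone.

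The largest difference among the smooth muscle genes on P28 was that of *Cnn1* (−0.26, adjusted p = 0.714), which was positive in the deposited ratio. On P12 it was that of *Actg2*, which was not well above background in either group. Among the endothelial genes on P28, *Ptprb* differed by 0.44 (adjusted p = 0.644), and by 0.58 with the slide as a block (adjusted p = 0.0176), but by −0.19 in the deposited ratio. Of the fibroblast genes, *Dcn* differed by 0.27 on P12 (adjusted p = 1), where only 2 OIR and 5 control mice had it well above background and the slide as a block gave −0.0039, and *Col1a2* by 0.40 on P28 (adjusted p = 0.685).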
